A study of Caenorhabditis elegans with 3 samples.

Results

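The nuclear oxidative phosphorylation genes of Caenorhabditis elegans were examined for binding of the C2H2 zinc finger domain protein Y5F2A.4. They were taken by symbol from the WBcel235 annotation: every nuclear protein-coding gene whose name begins with nuo-, nduf-, cox-, ucr-, atp-, asb-, asg-, sdha- or sdhb-, and the genes mev-1, isp-1, gas-1, lpd-5 and cyc-1. This gave 49 of 19973 nuclear protein-coding genes, with 14 in complex I, 4 in complex II, 7 in complex III, 15 in complex IV and 9 in complex V. The promoter of a gene ran from 1000 bp before its 5′ end to 200 bp after it, and a gene was called bound when the summit of a reproducible peak lay in it.

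Binding was measured by chromatin immunoprecipitation and sequencing in strain OP682, which carries the mutation unc-119(tm4063) and the transgene wgIs682. That transgene holds the fusion Y5F2A.4::TY1::EGFP::3xFLAG and also a working unc-119(+) gene that restores the mutant host. Binding is therefore that of a fusion protein, in a single line. Whole L4 larvae of mixed sex, 48 hours old, were used, and the antibody was against GFP, so no tissue can be told apart. All 3 libraries belong to 1 group (2 technical libraries of biological replicate 1, counted together, and 1 of biological replicate 2), and the design holds no contrast between conditions.

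Oxidative phosphorylation passes electrons from NADH through complex I, or from succinate through complex II, to ubiquinone, and on through complexes III and IV to oxygen. The proton gradient that complexes I, III and IV build drives ATP synthesis by complex V. Most subunits are encoded in the nucleus and imported, and a few core subunits are encoded on the mitochondrial genome.

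The authors deposited a list of candidate regions for each replicate, a list for both replicates combined, and a thresholded list of reproducible peaks. Each region carries the authors' signal value, a score with no stated unit, so signal is given as a description and ranks are counted among the nuclear regions of 1 list, with rank 1 the strongest. The candidate lists held 29984 nuclear regions in replicate 1, 23398 in replicate 2 and 28426 in the combined list. The thresholded list held 620 nuclear peaks, and these were the combined regions with a signal of 100.5 or more. Candidate lists include background, so a low-ranking candidate is not a called site.

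Of the 49 genes, 6 were bound, or 12.2%, against 1.46% of all nuclear protein-coding genes. They were nduf-2.2 of complex I, mev-1 of complex II, cox-5A, cox-5B and cox-6A of complex IV, and atp-1 of complex V. By complex this was 1 of 14 genes in complex I, 1 of 4 in complex II, 0 of 7 in complex III, 3 of 15 in complex IV and 1 of 9 in complex V. Within complex IV all 3 bound genes were among the 7 subunits, and 0 of the 8 assembly and haem factors was bound. With 1.46% of all protein-coding genes bound, a 0 among 7 or 8 genes is near the background. These are small counts from 1 group, and no test was made between complexes. Widening the list lowered the share. RefSeq gives a subunit product to 50 other nuclear genes with other names, such as ndua-8 and nduc-2. Of these genes, listed after the data had been seen, 0 were bound, which made 6 of 99 genes, or 6.06%.

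**Figure D1:**
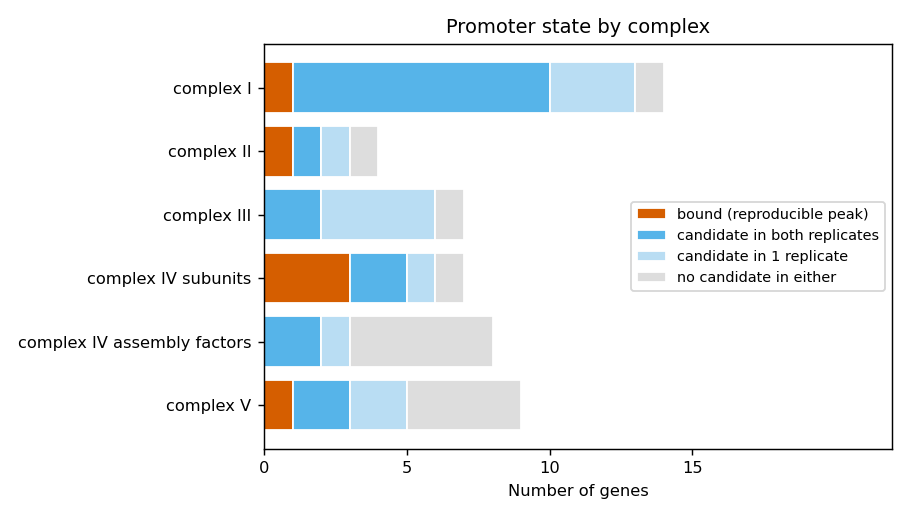
Number of genes (horizontal axis) by state of the promoter, for each complex and, in complex IV, for subunits and assembly factors apart. Bound genes number 1 in complex I, 1 in complex II, 3 among the complex IV subunits and 1 in complex V. No candidate in either replicate was found at 5 of the 8 assembly factors and at 11436 of all 19973 nuclear protein-coding genes.

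In complex I, which takes electrons from NADH, the bound gene was nduf-2.2, annotated as the 49 kDa subunit. Its peak lay on chromosome III, 6464218 to 6464593, with a signal of 129 and rank 325 in the combined list. The summit was 816 bp upstream of nduf-2.2, inside an exon of the unclassified non-coding RNA gene T26A5.10. The 5′ end of dlc-1, a dynein light chain gene on the other strand, was nearer at 627 bp. Replicate 1 had a summit within 4 bp of the combined summit, with a signal of 65.9 and rank 276. In replicate 2 the candidate at the same place, 38 bp away, had a signal of 41.5 and rank 2300. A stronger replicate 2 candidate, with a signal of 69.8 and rank 397, lay 983 bp upstream of nduf-2.2. The replicates therefore placed their strongest candidate in this promoter at different points.

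A second complex I gene, nduf-9, fell just outside the thresholded list. It encodes alpha subcomplex subunit 9. Its candidate on III, 3249055 to 3249430, had a combined signal of 98.4 and rank 660, below the lowest thresholded signal of 100.5. The replicates differed widely here. The signal was 16.7 with rank 23162 in replicate 1, and 78.7 with rank 287 in replicate 2. The summit was 668 bp upstream of nduf-9 and inside the microRNA gene cel-mir-4936. Bases around both summits are shown because each lies within a non-coding gene, on the strand of the oxidative phosphorylation gene, 5′ to 3′, from RefSeq WBcel235. For nduf-2.2 (chrIII:6464331-6464481, plus strand) the whole window is in T26A5.10 and capitals mark the 11 bases centred on the summit. For nduf-9 (chrIII:3249168-3249318, minus strand) capitals mark the 93 bases that belong to cel-mir-4936, which is transcribed from the opposite strand.
nduf-2.2: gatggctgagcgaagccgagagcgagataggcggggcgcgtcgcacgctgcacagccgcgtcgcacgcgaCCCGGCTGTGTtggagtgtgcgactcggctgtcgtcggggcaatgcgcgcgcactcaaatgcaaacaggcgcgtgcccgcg
nduf-9: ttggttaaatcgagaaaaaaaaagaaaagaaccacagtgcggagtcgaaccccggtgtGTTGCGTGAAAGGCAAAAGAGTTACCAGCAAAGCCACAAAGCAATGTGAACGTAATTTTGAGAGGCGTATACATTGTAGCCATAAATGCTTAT

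The remaining complex I promoters held weaker candidates. Ranks below are those of the strongest candidate of each replicate in the promoter, and the replicates need not share its position. A candidate in both replicates was found in 10 of the 14 complex I promoters, against 2980 of all 19973 protein-coding genes. Among the complex IV subunits it was found in 5 of 7. The gene nuo-5, for the 75 kDa subunit, ranked 727 in replicate 1 and 5295 in replicate 2, at different sites. At the replicate 1 site the replicate 2 candidate ranked 5812. For nuo-3 (alpha subcomplex subunit 6) the ranks were 1171 and 3310, but the combined summit was inside the coding sequence of arl-8, the divergent neighbour. For nuo-4 (alpha subcomplex subunit 10) they were 3192 and 1820, with the combined summit in an intron of rnp-7. For nuo-1, the flavoprotein subunit that receives electrons from NADH, they were 2947 and 13279, with the combined summit 69 bp upstream. For nduf-11 they were 11293 and 3668, with the combined summit 109 bp upstream. The order of these genes differed between the replicates. A pair of genes encodes the 49 kDa subunit, and the other copy, gas-1 on chromosome X, was the complex I gene with no candidate in any list.

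In complex II, which oxidises succinate, the bound gene was mev-1, for the cytochrome b560 subunit that anchors the enzyme in the membrane. Its peak on III, 10333977 to 10334352, had a combined signal of 113 and rank 468. The signal was 48.4 with rank 715 in replicate 1 and 64.7 with rank 503 in replicate 2. Both replicate summits lay upstream of the gene, at 137 and 112 bp. Replicate 1 also had a weaker candidate inside mev-1, 866 bp past the combined summit, at rank 1172. The combined summit was 112 bp from the 5′ end of mev-1 and 147 bp from that of jmjd-4, a Jumonji domain gene that runs the other way, so the peak lies in the promoters of both. The gene ced-9, which encodes an inhibitor of apoptosis, lies directly downstream of mev-1 on the same strand. From the summit, mev-1 ends at 1003 bp and ced-9 begins at 1007 bp. The peak is thus also upstream of ced-9, just outside its 1000 bp window. Among the other complex II genes, sdhb-1, the iron-sulfur subunit, had no candidate in either replicate. The flavoprotein gene sdha-1 ranked 10159 in replicate 1 and 14367 in replicate 2, at different sites, and sdha-2 ranked 13458 in replicate 1 only.

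In complex III, which passes electrons from ubiquinol to cytochrome c, 0 of 7 genes were bound. The closest thresholded summit was 1308 bp upstream of ucr-11, outside the window. In that promoter the strongest replicate 1 candidate ranked 2311 and replicate 2 had none. The core protein gene ucr-2.2 ranked 23735 in replicate 1 and 3283 in replicate 2. The Rieske iron-sulfur gene isp-1 had a candidate in replicate 2 alone, at rank 14027. Its combined summit was 19 bp from the 5′ end of the divergent gene islo-1 and 315 bp from that of isp-1. The cytochrome c1 gene cyc-1 had one in replicate 1 alone, at rank 11166. None of the complex III genes therefore ranked among the 2000 strongest of either replicate. Over all protein-coding genes 3.31% did so in replicate 1 and 3.65% in replicate 2, and 1.46% were bound. A 0 among 7 genes is near the background in each case.

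Complex IV, cytochrome c oxidase, held the strongest 3 peaks among these genes. The gene cox-5A had its peak on III, 12905121 to 12905291, with a combined signal of 273 and rank 38. Its signal was 111 with rank 60 in replicate 1 and 162 with rank 33 in replicate 2. The summit was 313 bp upstream, and the next 5′ end was that of flp-14, a neuropeptide gene, at 5332 bp, so no other gene's promoter held this summit. For cox-6A the peak on III, 5080731 to 5081106, had a combined signal of 215 and rank 81. Its signal was 134 with rank 32 in replicate 1 and 84.8 with rank 238 in replicate 2. Here the summit was 805 bp upstream of cox-6A but 21 bp upstream of F54D8.7, a small nuclear RNA gene on the other strand. Bases around these summits and that of mev-1 are given 5′ to 3′ on the plus strand, the strand of all 3 genes, from RefSeq WBcel235. They show a summit with a single candidate promoter (cox-5A), one between divergent coding genes (mev-1) and one beside a small RNA gene (cox-6A). Capitals mark the 11 bases centred on the summit for mev-1 (chrIII:10334090-10334240) and cox-5A (chrIII:12905103-12905253), and the 55 bases within F54D8.7 for cox-6A (chrIII:5080844-5080994).
mev-1: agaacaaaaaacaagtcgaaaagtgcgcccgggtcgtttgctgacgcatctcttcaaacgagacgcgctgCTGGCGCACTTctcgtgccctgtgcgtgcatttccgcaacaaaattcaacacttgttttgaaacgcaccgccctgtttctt
cox-5A: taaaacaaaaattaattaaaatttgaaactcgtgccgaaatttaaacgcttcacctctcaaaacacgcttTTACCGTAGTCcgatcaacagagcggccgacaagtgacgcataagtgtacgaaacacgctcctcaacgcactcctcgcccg
cox-6A: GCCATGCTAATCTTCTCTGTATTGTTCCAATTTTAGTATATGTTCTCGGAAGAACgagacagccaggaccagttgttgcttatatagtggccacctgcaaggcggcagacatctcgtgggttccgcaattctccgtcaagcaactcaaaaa

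Non-coding genes stood beside 2 of the 6 bound summits, within 200 bp: T26A5.10 at nduf-2.2 and F54D8.7 at cox-6A. These were also the bound genes whose summit ranked higher in replicate 1 than in replicate 2. The other 4 ranked higher in replicate 2, which has the shorter list. Over all nuclear thresholded peaks, 314 of 620 lay within 200 bp of a non-coding gene. Of those matched in both replicates, 51.1% ranked higher in replicate 1, against 40.1% of the matched peaks away from non-coding genes. Without the peaks near a non-coding gene, 4 of 49 genes were bound, or 8.16%, against 0.891% of all protein-coding genes. Which gene a peak between neighbours belongs to was not tested.

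**Figure D2:**
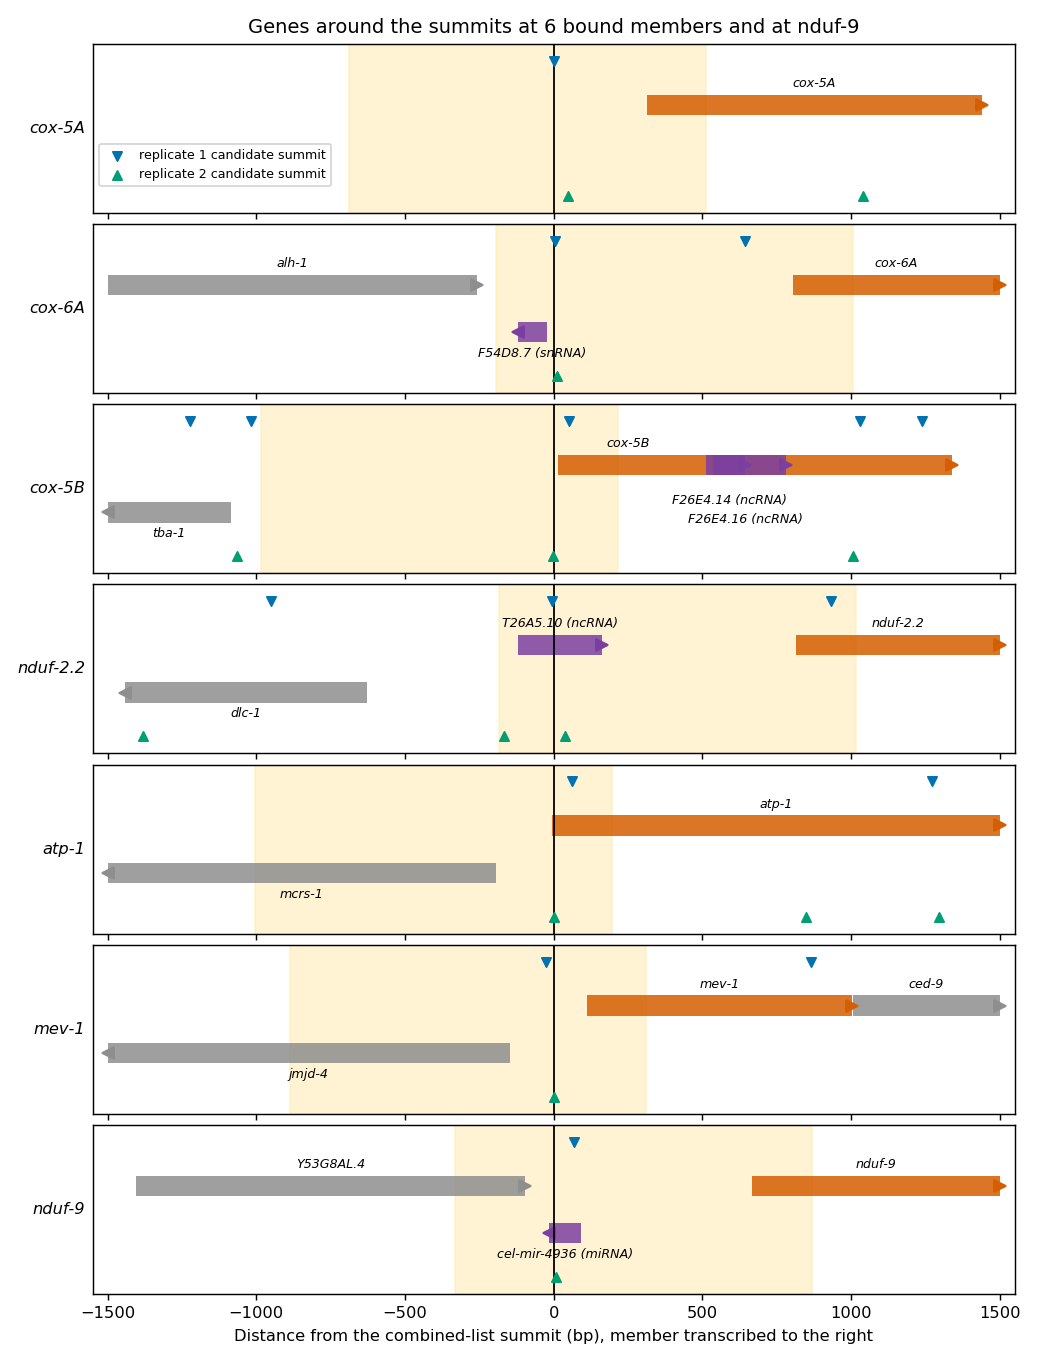
Genes within 1500 bp of the combined-list summit (0 on the horizontal axis, in bp) at the 6 bound genes and at nduf-9, each drawn with the oxidative phosphorylation gene (orange) transcribed to the right and its promoter shaded. Grey bars are other coding genes, purple bars non-coding genes, both ended at the plot's edge, and triangles are candidate summits of each replicate; the summits at cox-6A, nduf-2.2 and nduf-9 lie beside or within a purple bar.

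The bound genes outside chromosome III were cox-5B and atp-1, both on chromosome I and both with a summit at their own 5′ end. The cox-5B peak, on I from 9788522 to 9788897, had a combined signal of 171 and rank 151. Its signal was 51.5 with rank 581 in replicate 1 and 113 with rank 95 in replicate 2. The summit was 15 bp upstream of cox-5B, 511 bp from the nearest other 5′ end, that of the non-coding gene F26E4.16, and 1086 bp from tba-1, an alpha tubulin gene. In replicate 1 a stronger candidate, at rank 494, lay inside cox-5B, 1030 bp past the summit. Replicate 2 had one there too, 1006 bp past the summit, at rank 2223. In complex V, which makes ATP, the bound gene was atp-1, for the catalytic core's alpha subunit. Its peak, on I from 12652093 to 12652468, had a combined signal of 124 and rank 369. Its signal was 41.5 with rank 1232 in replicate 1 and 89.9 with rank 189 in replicate 2. The summit fell in the 5′ untranslated region, 4 bp inside the gene, and 194 bp from the 5′ end of the divergent gene mcrs-1. Weaker candidates also lay further inside atp-1, at rank 2850 in replicate 1 and 6758 in replicate 2, 1273 and 1296 bp past the summit. Thus cox-5A, cox-6A and cox-5B were among the strongest 620 in both replicates, while mev-1 and atp-1 were so in replicate 2 alone. The nduf-2.2 promoter also held such a candidate in both, but at different sites. At its bound summit replicate 2 ranked 2300.

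The other complex IV and V genes stood far lower. The copper chaperone gene cox-17 ranked 10816 in replicate 1 and 5832 in replicate 2, with the combined summit 18 bp inside the gene. The haem A factor gene cox-15 ranked 28377 and 4555. The assembly genes cox-10, cox-11, cox-14, cox-18 and cox-19 had no candidate in either replicate, and the closest thresholded summit to cox-10 was 1661 bp upstream. Over all 19973 protein-coding genes 11436 had none in either, so 5 of the 8 assembly genes is near the background. Among subunits, cox-4 ranked 8535 and 20163 and cox-6B had none. For cox-6C the ranks were 12047 and 5277 at different sites, and at the combined summit replicate 1 ranked 22607. In complex V the beta subunit gene atp-2, whose product pairs with that of atp-1, had no candidate. Neither had asb-1, asg-1 or asg-2, while asb-2, the second gene for subunit b, ranked 4186 in replicate 2 alone. For atp-4, the coupling factor gene, the ranks were 3907 and 16697.

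Ranks were then counted without the thresholded list. Among the 620 strongest nuclear candidates of replicate 1, summits fell in 4 of the 49 promoters, or 8.16%, against 1.34% of all protein-coding promoters. In replicate 2 the count was 7, or 14.3%, against 1.51%, and the gene added to the bound 6 was nduf-9. Among the 2000 strongest of each replicate, 6 promoters held a summit in both, against 1.85% of all, and these were the 6 bound genes. The 2 summits need not share a position. At nduf-2.2 they did not, and the replicate 2 candidate at the bound summit ranked 2300. Any candidate at all was found at 29 genes in replicate 1, or 59.2% against 30.7%, and at 31 in replicate 2, or 63.3% against 26.9%. The combined list had one at 33, or 67.3% against 30.4%. Both replicates had a candidate at 24 of the 49 genes, against 2980 of all 19973, and neither had one at 13, against 11436. These counts are cumulative, so those at any candidate include the strong ones, and weak candidates were not counted apart. The difference from all genes was not tested, since the genes were chosen with results of these data known.

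**Figure D3:**
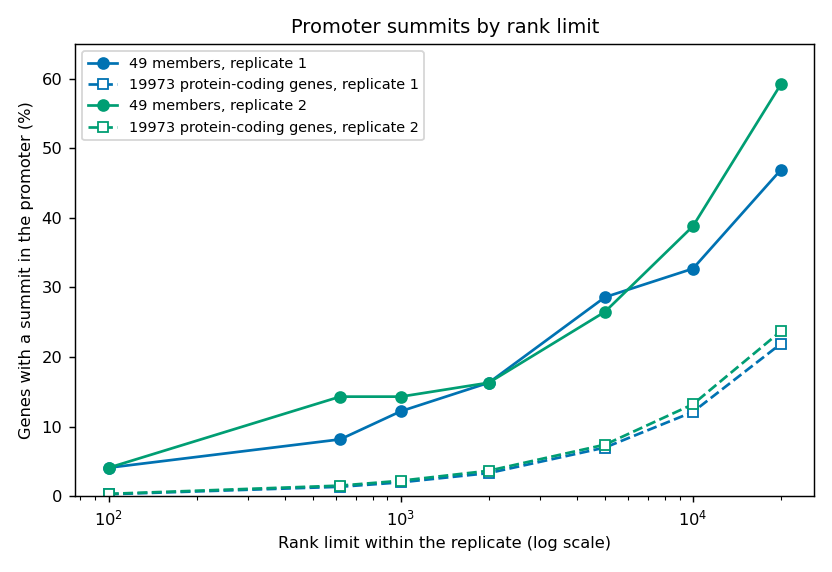
Share of promoters (vertical axis, percent) with a summit among the strongest candidates of a replicate, against the rank limit (horizontal axis, log scale), for the 49 genes (filled circles) and all 19973 nuclear protein-coding genes (open squares). At rank limit 2000 both replicates gave 16.3% for the 49 genes, against 3.31% and 3.65% for all genes.

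A summit among the 2000 strongest of both replicates was held by 12.2% of the 49 promoters, against 1.85% of all. Ranks differed between the replicates, whose lists differ in length, and how far they differ over all genes was not measured. Among genes with a candidate, the median of the best rank was 6455 in replicate 1 and 5832 in replicate 2, against 13044 and 10326 for all protein-coding genes with a candidate. Of the genes with a candidate in a single replicate, 5 had it in replicate 1 and 7 in replicate 2.

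**Figure D4:**
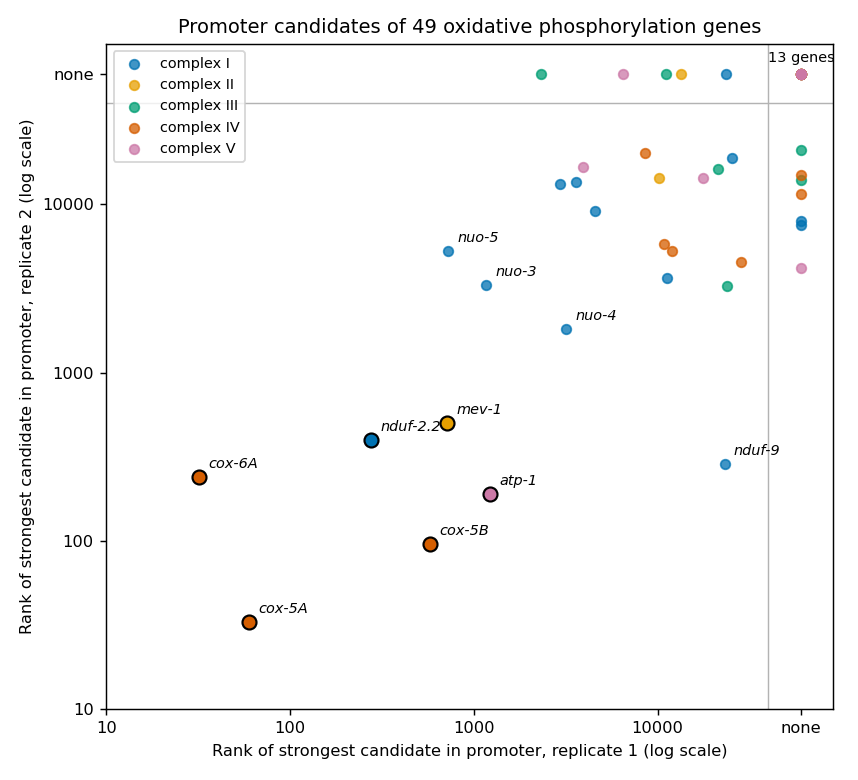
Rank of the strongest candidate summit in each of the 49 promoters in replicate 1 (horizontal axis) and replicate 2 (vertical axis), both on log scales, coloured by complex, with black outlines on the 6 bound genes. Genes with no candidate in a replicate are placed beyond the grey line, 13 of them in the corner, and nduf-9 stands apart at rank 23162 in replicate 1 and 287 in replicate 2.

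Measured from the 5′ end, with upstream positions negative, summits at the bound genes lay between −816 and 4 bp, with a median of −212.5 bp. Over all 291 bound protein-coding genes the median was −284 bp. Of the 6, mev-1, cox-5B and atp-1 had the summit within 200 bp of the 5′ end, or 50%, against 36.1% of all bound genes. The best candidate lay within 200 bp at 51.7% of the oxidative phosphorylation genes with one in replicate 1 and at 35.5% in replicate 2, against 38.4% and 39.6% of all genes, so the replicates did not share a direction. For 23 of the 33 genes with a combined candidate, their own 5′ end was the nearest coding one. At the other 10, such as isp-1, nuo-3 and nduf-2.2, another coding gene's was nearer.

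**Figure D5:**
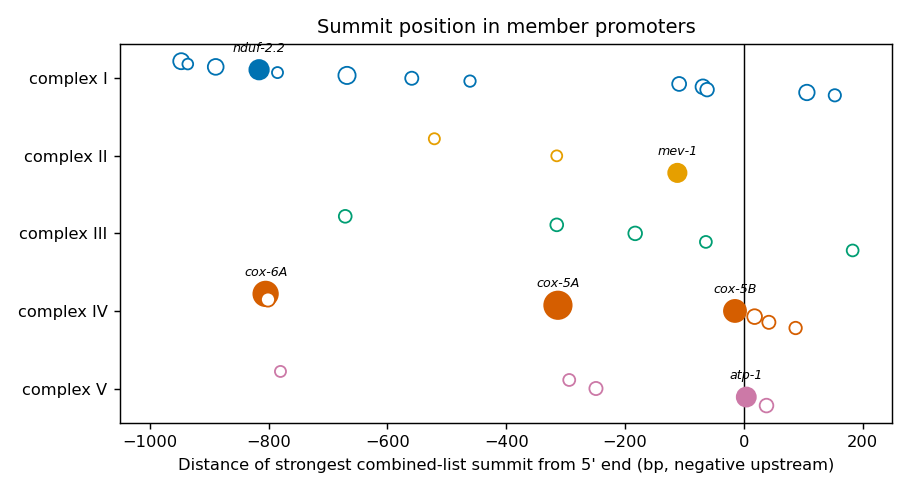
Distance of the strongest combined-list summit from the 5′ end (horizontal axis, bp, negative upstream) for the 33 genes with a candidate, by complex, with symbol area growing with the authors' signal and filled symbols for bound genes. Summits of cox-5B and atp-1 lie at the 5′ end, and those of nduf-2.2 and cox-6A near 800 bp upstream.

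Close neighbours were common for these genes. A divergent coding gene began within 1000 bp upstream of 24 of the 49, or 49%, against 17.7% of all protein-coding genes. A coding gene on the same strand ended within 1000 bp upstream of 19, or 38.8%, against 28.9%. All 19 were among the 43 unbound genes and none among the 6 bound, and 2 of the bound genes, mev-1 and atp-1, had a divergent partner. With 6 bound genes these counts are small. The same shares were not counted among all bound protein-coding genes, and no difference between bound and unbound genes was tested. Of the 8 complex IV assembly factor genes, 6 followed such a same-strand neighbour. At cox-11, cox-15, cox-17, cox-18 and cox-19 the gap was 96 to 119 bp, so most of the upstream window lay beyond the neighbour's 3′ end. Whether these genes have a promoter of their own inside the window was not tested, which limits the count of unbound assembly factors. A non-coding gene began in the promoter of 10 genes, or 20.4%, against 9.94%. The bound genes sat on chromosomes III (4 of 13) and I (2 of 16), where 2.5% and 2.08% of all protein-coding genes were bound, the highest shares of any chromosome. Of the 20 genes on II, IV, V and X 0 were bound, where the shares over all genes were 1.48%, 1.4%, 0.681% and 1.24%, so a 0 there is near the background.

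The bases at the bound summits were compared by composition and by a few short words, and no alignment or motif search was run. Within 50 bp of the summit on either side, the share of G and C was 72.3% at nduf-2.2, 59.4% at atp-1, 58.4% at cox-5B, 56.4% at mev-1, 50.5% at cox-6A and 46.5% at cox-5A. The median was 57.4%, with cox-5A below and nduf-2.2 far above the median of 48.5% over all nuclear thresholded summits. Whole promoters had medians of 36.5% for the 49 genes and 35.0% for all genes. A set of 6 words was searched on both strands, and a single match was found within 50 bp of the bound summits, GGGCGG at atp-1. In the 151 bp printed for mev-1 this word occurs too. Over all nuclear thresholded summits the shares within 50 bp were 7.26% for GGGCGG, 16% for CGAACC, 14% for GGTTCGA and 15.5% for GAGAGA. They were 7.26% for TATAAA and 2.9% for CACGTG. Few or no matches at 6 summits are thus near the background. Across whole promoters GGGCGG was present in 30.6% of the 49 genes and 19.2% of all. For CACGTG the shares were 10.2% and 18.4%. For CGAACC they were 14.3% and 17.4%. For GGTTCGA, which on the other strand contains the word before, they were 6.12% and 6.91%, and both of these occur in the bases printed for nduf-9. For TATAAA they were 77.6% and 80%. For GAGAGA they were 46.9% and 50.9%. A match is only a string of letters, and its absence says nothing about the protein.

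Genes of adjoining mitochondrial functions were counted in the same way. Of 10 genes for cytochrome c, other electron carriers and assembly or inhibitor proteins, 8 for ubiquinone synthesis, 4 for ADP/ATP carriers, 16 of the tricarboxylic acid cycle, 4 of pyruvate dehydrogenase and 12 of mitochondrial import, 0 were bound. The list of 10 also held sdhd-1 and hpo-18, which encode subunits and are counted again among the 50 other genes with a subunit product. With 1.46% of all protein-coding genes bound, lists of this size would seldom hold a bound gene, so these zeros are near the background. Among the 50 other genes with a subunit product, 42% had a candidate in replicate 1 and 38% in replicate 2, also above the shares over all protein-coding genes. The strongest of them in the combined list were the complex I genes ndua-8, with a signal of 84.9, nduc-2, with 76.7, and nduv-3, with 73.9. All 3 lay below the lowest thresholded signal. In replicate 1 they ranked 8747, 12365 and 18762, and in replicate 2 they ranked 1029, 846 and 981. Other genes of this list went the other way. C15H11.11 ranked 1297 in replicate 1 and 3794 in replicate 2, and T27E9.2, ndua-2 and ndub-2 ranked 1095, 1120 and 2337 in replicate 1 with no candidate in replicate 2.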

How the data were processed

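Binding of tagged Y5F2A.4 was analysed from 4 region lists, not from reads. Per the labels, chromatin was sonicated to 200 to 800 bp and the assembly was ce11. Per the notes deposited with the files, candidate regions were made for replicate 1 (a single alignment from 2 technical libraries), replicate 2 and both, each against a control, and the thresholded list was derived from these with the irreproducible discovery rate. No caller, aligner, rate threshold or version was stated there or in the labels. The deposited signal value has no stated unit, and the deposited −log10 q was not used to rank peaks. Read depth is unknown, so for an unlisted site absence and a level too low to detect cannot be told apart.

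Summits came from the deposited summit offset. Genes came from Ensembl release 115 and products and sequence from RefSeq, both WBcel235. Strengths were compared as ranks within a list. A replicate candidate matched a summit within 200 bp. With 1 group and 2 biological replicates, no test was made: counts stand beside those over all 19973 genes, and nothing covers the spread between worms. Window counts were tested on simulated data. Named genes were every bound one, those within the 2000 strongest in both replicates, nearest neighbours, those with a thresholded summit within 2000 bp, and the 5 other highest genes per replicate. The paralogues, cox-4, cox-6C, cox-15, cox-17, atp-4, isp-1, cyc-1, ndua-8, nduc-2, nduv-3, C15H11.11, T27E9.2, ndua-2 and ndub-2, and genes with no candidate were added after their values were seen. Genes and lists were chosen with earlier results of these data known. Python 3.11.15, numpy 2.4.6, pandas 2.3.3 and matplotlib 3.10.9 were used.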

Additional observations from a re-analysis of the deposited data

Results flagged for a closer look

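The mitochondrial genome, which the comparisons above left out, held 15 thresholded peaks over its 13794 bp. Their signal ran from 217 to 4430 with a median of 1056, while the highest nuclear signal was 718. A summit lay inside 10 of the 12 mitochondrial protein-coding genes, which encode further oxidative phosphorylation subunits. The share of this short genome that lies inside these genes was not counted. The 10 therefore has no background beside it and does not single out these genes. No library without the fusion protein was analysed here, so the level these peaks would have in such a library was not tested.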

How the results depend on the processing

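Of 65 values under another setting, 48 stayed within 1.5 times the reported one, 17 moved and 0 reversed. Counts and shares cannot be negative, so the median offset alone could have reversed. Many of the 48 were counts of 0 or 1 in a complex. Bound genes numbered 3 (cox-5A, cox-5B and cox-6A) with the 310 strongest nuclear peaks, where complexes I, II and V each fell to 0. Complex I also fell to 0 with a window of 500 bp upstream and 100 bp downstream, with the nearest coding 5′ end only, and without peaks near non-coding genes. Complex III rose to 1 (ucr-11) with a window of 2000 bp upstream. With each replicate left out in turn, the 620 strongest nuclear candidates of the other gave 4 to 7 bound genes, with 1 to 2 in complex I, 0 to 1 in complex II, 0 in complex III, 3 in complex IV and 0 to 1 in complex V. The complex II and V genes, mev-1 and atp-1, were lost without replicate 2, and nduf-9 was gained without replicate 1. Genes with a candidate fell from 29 to 18 in replicate 1 and from 31 to 17 in replicate 2 in the narrow window, to 8 in each with the 2000 strongest candidates, and to 20 in replicate 2 with the stronger candidates, split at the median rank. Added after seeing the data, the other genes with a subunit product lowered the bound share to 6.06%, and any transcript's 5′ end again gave 6 bound genes. Complex counts rest on 1 to 3 genes, and unknown depth limits every absence. No paired analysis was possible because there is 1 group and no test.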
